A study of Danio rerio with 6 samples.

Results

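The Wnt genes described here encode the ligands, their secretion factor, the receptors and the cytoplasmic and nuclear parts of the Wnt pathway. They were chosen by gene symbol, with earlier results of these data known. Probe sets with a single platform symbol of a wnt, fzd, lrp5 or lrp6, ror, dvl, nkd, axin1, apc, gsk3, btrc, csnk1, csnk2, porcn, wls, tcf7 (tcf7l1 and tcf7l2 included) or tle gene were kept, and each gene was read from its brightest probe set. This gave 41 of 8793 named genes, read by 53 probe sets. By step they were 10 Wnt ligands, 1 secretion factor, 9 receptors or co-receptors, 2 Dishevelled genes, 3 genes of the beta-catenin destruction complex, 10 casein kinase genes and 6 Tcf or Groucho genes. The lrp5, lrp6, apc, btrc, porcn and nkd genes and tcf7 itself were matched by no probe set with a single symbol and were not analysed here. The families that were matched were covered only in part. For example, wnt3, wnt3a, wnt8a, gsk3bb and ror1 were not among the 41 genes.

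RNA of whole zebrafish embryos of the AB strain, 12 h after fertilisation at the 6-somite stage, was hybridised to Affymetrix arrays, with 3 arrays of Ovo1 morphants and 3 of controls. In the morphants a morpholino, which blocks translation or splicing of an RNA, was directed at Ovo1, a transcription factor with zinc fingers, and their genotype label reads sox10(7.2):gfp, a green fluorescent reporter of the neural crest gene sox10. The genotype label of the controls reads only control, while the design text can be read as giving the reporter to both groups. The labels say neither whether controls were injected, nor how many embryos were pooled, nor whether replicates were separate clutches. The p-values therefore refer to the spread among 3 samples per group, part or all of which may be technical. No probe set was named as an ovo gene, so the knockdown itself was not checked.

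Wnt ligands are secreted lipid-modified proteins that bind Frizzled receptors on neighbouring cells. In the canonical branch the signal passes through Dishevelled and stops a complex of Axin, Apc, casein kinase 1 and Gsk3 from marking beta-catenin for destruction. Beta-catenin then enters the nucleus and turns Tcf factors, which repress targets together with Groucho proteins in its absence, into activators. In the zebrafish embryo this branch patterns the posterior body and the brain and is needed for neural crest induction, while a branch without beta-catenin, driven by ligands such as Wnt5b and Wnt11, controls cell movements.

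Of the 41 genes, the receptor fzd8b was higher and the kinase gsk3ba was lower in Ovo1 morphants, and the other 39 did not pass the test (limma, p adjusted by Benjamini-Hochberg, threshold 0.05, 3 arrays per group). Each of these calls rests on 1 probe set, so no second probe set could check it. The same holds for fzd7a and csnk2a2a below, and 31 of the 41 members had 1 probe set. Among all 8793 named genes 6.8% were called, 3.23% higher and 3.57% lower, and among the members 4.88%. Over all 15502 probe sets the share was 5.72%, with 2.59% higher and 3.12% lower. Same-numbered morphant and control arrays deviated together, so the replicate number was also used as a block. With the block 3 members were higher, fzd8b, fzd7a and csnk2a2a, and 2 were lower, gsk3ba and fzd10. That is 12.2% of the members, where 21.3% of named genes were called in that fit, 10.7% higher and 10.6% lower, and 18.6% of probe sets, 8.82% higher and 9.83% lower. Before adjustment 7 members (17.1%) had a p under 0.05, beside 23.9% of named genes. Changes above 0 were found in 27 members (65.9%) and in 51.4% of named genes. The median log2 change of the members was 0.046, beside 0.007 over all named genes, and their median absolute change was 0.084, beside 0.147. In 36 of 41 members (87.8%) the 95% interval of the change lay within 1.5-fold in either direction, as it did in 73.5% of named genes. The 5 whose interval reached further were wnt5b, fzd8b, gsk3ba, csnk2a2a and tcf7l2. The 36 include wnt10a, wnt2, wnt2ba and wnt4b, below the 25th percentile on all 6 arrays, and csnk1e, below it on all but 1. There the pseudocount of 16, added to each intensity before the log2, shrinks changes and intervals. Their narrow intervals therefore do not show that these genes were stable, and the median absolute change includes them. The change of wnt10a, 0.24 with that pseudocount, was 0.55 with a pseudocount of 1.

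**Figure D1:**
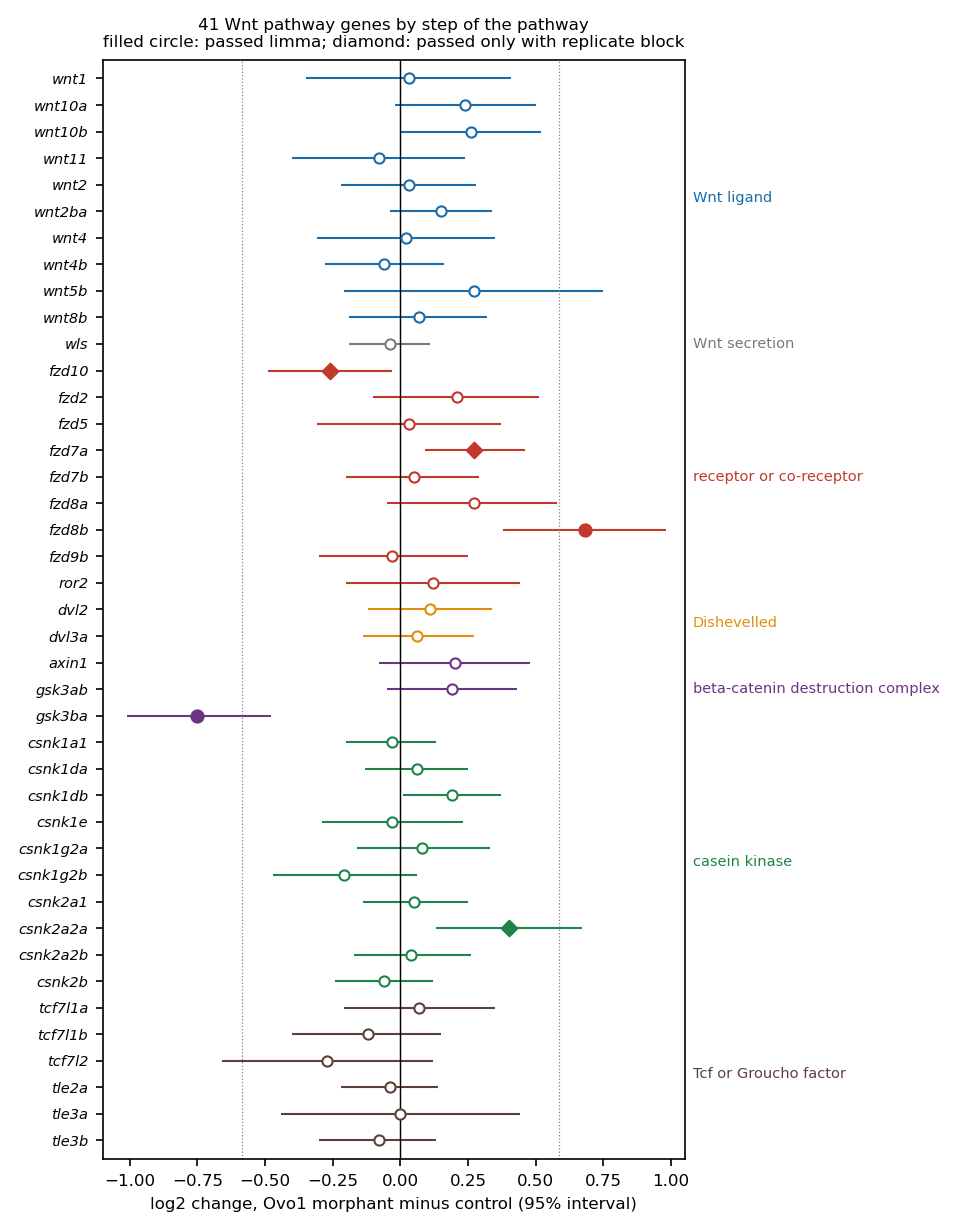
Log2 change of the 41 Wnt pathway genes, Ovo1 morphant minus control, with 95% intervals from limma (n = 3 arrays per group), in the order and colours of the pathway steps. Filled circles passed the test, diamonds passed it only with the replicate number as a block, open circles passed neither, and dotted lines mark a 1.5-fold change; fzd8b (0.68) and gsk3ba (−0.75) lie apart from the other 39.

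The whole arrays set the scale for these values. Array medians of the deposited intensity lay between 132.73 and 154.08, and values below are on that scale after quantile normalization. No detection calls were used, so a gene is described as dim where it lay below an array's 25th percentile. Intensities of different genes are not compared, except that they are added in list sums, which follow the brightest probe sets of a list. Of the whole-embryo tissue markers, 9 of 10 were measured and all 9, from muscle, notochord, neural tube, crest, blood and epidermis, lay above the 25th percentile on all 6 arrays; 1 was lower, the neural gene sox2 (−0.41 ± 0.10, called in 1 of the 6 fits without an array), and 0 higher. With the block 2 were lower, sox2 and the crest gene sox10, and 1 higher, the floor plate and endoderm gene foxa2. Without the block sox10 was at −0.33 ± 0.15 (limma, adjusted p = 0.259, and 0.0479 with the block). Likewise foxa2 was at 0.28 ± 0.10 (adjusted p = 0.16, and 0.041 with the block). Their summed intensity was 17270 to 18709 in morphants and 17297 to 18347 in controls, most of it from the epidermal keratin krt4, which read 12679 to 13194 in morphants and 11811 to 12733 in controls. On all 6 arrays krt4 lay between percentiles 99.8 and 99.9, and quantile normalization gives each rank a fixed value. The sums of these markers therefore say little about the markers other than krt4. Genes of the DNA damage response, a list drawn up with earlier results of these data known, moved with the groups. Of 12 such genes 11 were higher and 0 lower, beside 3.23% and 3.57% of named genes. Their median log2 change was 2.39, and their summed intensity was 30219 to 31839 in morphants and 10745 to 10995 in controls. Their part in the Wnt results was not tested. In whole-embryo RNA, fewer cells of a type and less RNA per cell cannot be told apart.

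None of the 10 ligands measured passed the test in either fit (limma, smallest adjusted p 0.23 without the block and 0.103 with it). Their log2 changes ran from −0.08 to 0.27, with a median of 0.048, and 8 of 10 lay above 0. One of them had an unadjusted p under 0.05, wnt10b, a ligand of the dorsal neural tube and midbrain. Its normalized intensity was 78.2, 71.3 and 81.8 in morphants 1 to 3, and 58.4, 61.2 and 65.0 in controls 1 to 3. All 3 morphants lay above all 3 controls, and the change of 0.26 ± 0.11 (SE) had an adjusted p of 0.23. Its neighbour wnt1, with no protein-coding gene between them in the RefSeq annotation of GRCz12tu and a ligand of the same domains, read 73.0, 45.5 and 47.1 in morphants and 45.0, 57.5 and 56.7 in controls. Morphant 1 was the highest array and morphants 2 and 3 lay within the controls' range, so the groups overlapped (0.03 ± 0.17, adjusted p = 0.956).

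Neither wnt5b nor wnt11, the ligands of the movement branch named above, passed the test in either fit. The intensity of wnt5b was 590, 332 and 332 in morphants 1 to 3, and 373, 302 and 323 in controls 1 to 3. Only morphant 1 lay above every control, and the change of 0.27 ± 0.21 (limma, adjusted p = 0.539, and 0.166 with the block) was 0.002 without that array. Each morphant lay above the control of its number, by 0.64, 0.13 and 0.04, and the interval of wnt5b ran from −0.21 to 0.75. For wnt11 the readings were 341, 424 and 472 in morphants and 451, 386 and 466 in controls, which overlap widely (−0.08 ± 0.14, adjusted p = 0.832). Without morphant 1 the sign turned, to 0.048. The receptor tyrosine kinase ror2, a co-receptor of Wnt5 ligands, was at 0.12 ± 0.14 (adjusted p = 0.712).

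Of the other ligands, wnt4 was at 0.02 ± 0.14 and wnt8b, a ligand of the developing brain, at 0.07 ± 0.11. With wnt8b between percentiles 26.2 and 29.9 and wnt1 between 28.8 and 37.3, both lay close to the limit used for dim genes. The ligands wnt10a, wnt2, wnt2ba and wnt4b lay below the 25th percentile on all 6 arrays. Their readings, between 0.02 for wnt2 in morphant 3 and 29.3 for wnt4b in control 2, are near the floor, where the pseudocount of 16 shrinks any change. In wnt10a and wnt2ba all 3 morphants lay above all 3 controls, as in 14.5% of named genes. Their changes were 0.24 ± 0.11 and 0.15 ± 0.08 (limma, adjusted p = 0.268 and 0.346). The secretion factor wls, the carrier that takes Wnt proteins to the cell surface, read 2153, 2173 and 2217 in morphants and 2325, 2214 and 2173 in controls. The groups overlapped, and the change was −0.04 ± 0.07 with an interval from −0.19 to 0.11 (adjusted p = 0.835). Its dimmer probe sets were at −0.25 ± 0.16 and 0.08 ± 0.08, and neither passed in either fit.

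The receptors held the largest increase among the 41 genes as read from their brightest probe sets. The Frizzled gene fzd8b had normalized intensities of 308, 340 and 297 in morphants 1 to 3, against 223, 184 and 168 in controls 1 to 3. All 3 morphants lay above all 3 controls, and each lay above the control of its own number, by 0.44, 0.83 and 0.77 on the log2 scale. The mean log2 level was 8.37 ± 0.10 in morphants and 7.69 ± 0.19 in controls (SD, n = 3 each), a change of 0.68 ± 0.13 (SE) or 1.60-fold (limma, adjusted p = 0.0237, and 0.00367 with the block). The call ended without control 2, control 3, morphant 2 or morphant 3 (adjusted p up to 0.122), with the change between 0.60 and 0.79 whichever array was left out.

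Its paralogue fzd8a read 531, 657 and 726 in morphants, against 519, 473 and 584 in controls. Each morphant lay above the control of its number, by 0.03, 0.46 and 0.31, but morphant 1 fell within the controls' range (0.27 ± 0.14, adjusted p = 0.32, and 0.0944 with the block). A second fzd8a probe set gave a like change, 0.28 ± 0.11, with no overlap between groups (adjusted p = 0.199). The within-array log2 ratio of fzd8a to fzd8b was 0.76, 0.92 and 1.25 in morphants and 1.17, 1.29 and 1.71 in controls. The groups overlapped, and the changes of the paralogues differed by −0.41 (exact permutation test, two-sided, p = 0.2, adjusted p = 0.32 over 8 paralogue pairs). With 3 against 3 arrays this test cannot give a p below 0.1, so no paralogue pair could pass the threshold. It therefore cannot decide whether fzd8a and fzd8b changed differently.

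The other Frizzled calls, of fzd7a and fzd10, came with the block or with array weights, and not with all 6 arrays and neither of these. The intensity of fzd7a, a receptor used during gastrulation movements, was 3673, 3601 and 3833 in morphants, against 3422, 2800 and 3000 in controls. Every morphant exceeded every control, and the change was 0.27 ± 0.08, or 1.21-fold (limma, adjusted p = 0.0933, and 0.0187 with the block). Without control 1, fzd7a also passed with no block (0.35, adjusted p = 0.0441). The paralogue fzd7b read 2372, 1944 and 2070 in morphants and 2356, 1900 and 1936 in controls. On both groups' arrays number 1 was the highest, and within each number morphant and control were close (0.05 ± 0.11, adjusted p = 0.875, and 0.643 with the block); a second fzd7b probe set gave 0.08 ± 0.14. The ratio of fzd7a to fzd7b differed by 0.23 between the groups, with overlap (exact permutation p = 0.2, adjusted p = 0.32). Here too the permutation test could not have passed with so few arrays, so it does not decide whether these paralogues differed.

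The intensity of fzd10, a receptor known from the dorsal neural tube, was 1261, 1113 and 1342 in morphants, against 1548, 1336 and 1566 in controls. The groups overlapped by the narrow margin of morphant 3 over control 2, while each morphant lay below the control of its own number, by 0.29, 0.26 and 0.22. The change of −0.26 ± 0.10 did not pass (limma, adjusted p = 0.19) and did with the block (0.0249). A dimmer fzd10 probe set was at −0.18 ± 0.14 and passed in neither fit (adjusted p = 0.525 and 0.151). The remaining receptors were fzd2 at 0.21 ± 0.13, fzd5 at 0.03 ± 0.15 and fzd9b at −0.03 ± 0.12, and none of these passed in either fit. Of the 8 Frizzled genes 6 lay above 0, and the median of the 9 receptors was 0.119.

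Lists of brain and tailbud markers, regions in which Frizzled receptors are known to be expressed, were read in the same comparison. Most of their genes did not pass without the block, while with it most of the anterior neural plate genes did. Of all named genes, 3.23% were higher and 3.57% lower without the block, and 10.7% and 10.6% with it. Of 10 anterior neural plate genes 2 were lower, the eye field genes rx2 (−0.83 ± 0.16) and pax6a (−0.57 ± 0.10), and 0 higher (1 higher and 6 lower with the block), with a median of −0.382 and a summed intensity of 3457 to 3918 in morphants and 4183 to 4557 in controls. Within that list the gene higher with the block was six3b, at 0.29 ± 0.09 (limma, adjusted p = 0.087, and 0.0261 with the block). Those lower only with the block were pax6b (−0.74), rx3 (−0.44), emx3 (−0.39) and otx2b (−0.37). Of 11 genes of the midbrain, hindbrain and dorsal neural tube 1 was lower, en2b (−0.80 ± 0.16), and 0 higher (3 lower with the block), with a list median of −0.186 and a sum of 4999 to 5382 in morphants and 5714 to 5917 in controls. Of 12 tailbud and posterior mesoderm genes 1 was lower, hoxa9a (−0.78 ± 0.12), and 0 higher (3 lower with the block), with a median of −0.208 and sums of 11610 to 14546 in morphants and 13972 to 15007 in controls. Such sums follow the brightest probe sets of a list. In the tailbud list these were msgn1, at 3381 to 4505 in morphants and 3981 to 4091 in controls, and cdx4, at 3545 to 3937 and 4159 to 4670. Of the 6 fits that each left out an array, rx2 and pax6a were called in 3, en2b in 2 and hoxa9a in 4; none of these genes was called without control 2. No marker in these 3 lists had an intensity of 0 on any array, and their part in the receptor values was not tested.

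**Figure D2:**
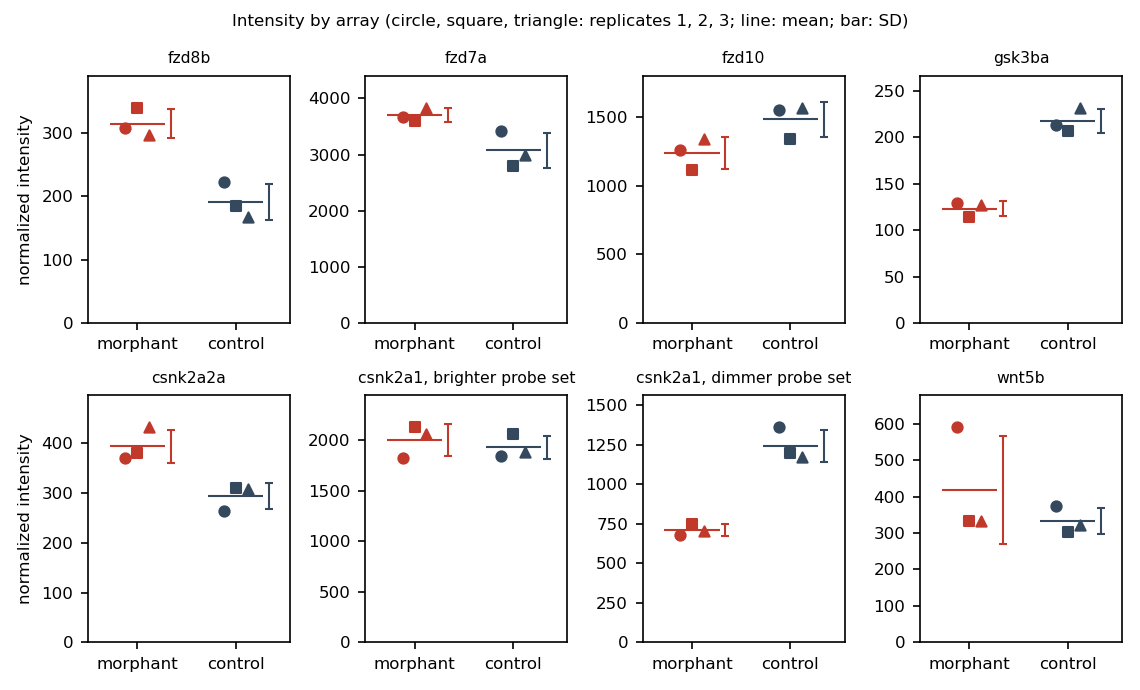
Normalized intensity (linear axis from 0) on each of the 3 Ovo1 morphant (red, left) and 3 control (dark blue, right) arrays for the 5 members called in either fit, both csnk2a1 probe sets and wnt5b. Symbols mark replicates 1 to 3, lines the mean and bars the SD; gsk3ba sits at 114 to 129 in morphants and 207 to 232 in controls, and the dimmer csnk2a1 probe set at 677 to 750 in morphants and 1171 to 1359 in controls.

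Neither of the Dishevelled genes, which carry the signal from Frizzled into the cell, passed the test. The intensity of dvl2 was 450, 494 and 431 in morphants and 424, 432 and 414 in controls, with morphant 3 below control 2 (0.11 ± 0.10, adjusted p = 0.626). That of dvl3a was 645, 633 and 639 in morphants and 636, 598 and 599 in controls (0.06 ± 0.09, adjusted p = 0.772). In both genes each morphant lay above the control of its number, and neither passed with the block (adjusted p = 0.43 and 0.634).

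The destruction complex held the largest decrease among the 41 genes as read from their brightest probe sets. Gsk3 kinases phosphorylate beta-catenin, and gsk3ba is a zebrafish gene for the beta form. Its normalized intensity was 129, 114 and 127 in morphants 1 to 3, against 213, 207 and 232 in controls 1 to 3. All 3 morphants lay far below the lowest control, and the same-numbered differences were alike, at −0.66, −0.78 and −0.80. The mean log2 level was 7.12 ± 0.09 in morphants and 7.87 ± 0.08 in controls (SD, n = 3 each), and the change of −0.75 ± 0.12 (SE) left morphants at 0.596 of the control level (limma, adjusted p = 0.00941, and 0.00146 with the block). The call ended without control 3 or morphant 2 (adjusted p = 0.0675 and 0.0576), with the change between −0.78 and −0.69 whichever array was left out.

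The other Gsk3 gene measured, gsk3ab, an alpha form, read 889, 1069 and 857 in morphants and 789, 847 and 808 in controls. All 3 morphants lay above all 3 controls, narrowly, and the change of 0.19 ± 0.11 did not pass in either fit (adjusted p = 0.35, and 0.125 with the block). The scaffold axin1 was at 751, 622 and 680 in morphants and 683, 532 and 574 in controls. Each morphant exceeded the control of its number, by 0.13, 0.22 and 0.24, while the groups overlapped (0.20 ± 0.12, adjusted p = 0.422, and 0.115 with the block). A dimmer axin1 probe set was at 0.05 ± 0.16.

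Casein kinases act at several steps. Casein kinase 1 alpha marks beta-catenin ahead of Gsk3, the delta, epsilon and gamma forms act at Dishevelled and at the receptors, and casein kinase 2 is a tetramer of catalytic alpha and regulatory beta subunits with many substrates outside the pathway. None of the 6 casein kinase 1 genes passed in either fit, with changes from −0.21 to 0.19 (smallest adjusted p 0.208 without the block and 0.0992 with it). The alpha gene csnk1a1 read 2583, 2297 and 2323 in morphants and 2446, 2386 and 2519 in controls, and its interval ran from −0.20 to 0.13. In csnk1db all 3 morphants lay above all 3 controls (0.19 ± 0.08), and its paralogue csnk1da was at 0.06 ± 0.08. Their ratio did not overlap between the groups (difference −0.13, csnk1da over csnk1db, exact permutation p = 0.1, adjusted p = 0.267). A dimmer csnk1da probe set was at −0.19 ± 0.23 (limma, adjusted p = 0.724), and the ratio was not taken with it. The gamma paralogues csnk1g2a and csnk1g2b were at 0.08 ± 0.11 and −0.21 ± 0.12, and the log2 ratio of csnk1g2a to csnk1g2b was 0.37, 0.49 and 0.41 in morphants and 0.14, 0.08 and 0.17 in controls. These ratios did not overlap (difference 0.29, exact permutation p = 0.1, the smallest that 3 against 3 arrays can give, adjusted p = 0.267 over 8 pairs). A second csnk1g2b probe set gave a like change, −0.19 ± 0.14. The gene csnk1e was dim on 5 of 6 arrays (−0.03 ± 0.12).

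Among the casein kinase 2 subunits the catalytic gene csnk2a2a read 370, 381 and 432 in morphants, against 264, 311 and 308 in controls. Every morphant lay above every control and the change was 0.40 ± 0.12, or 1.32-fold (limma, adjusted p = 0.089, and 0.0168 with the block). Its paralogue csnk2a2b read 834, 857 and 845 in morphants and 901, 802 and 761 in controls, which overlap (0.04 ± 0.10, adjusted p = 0.866). The ratio between these paralogues did not overlap between the groups (difference 0.36, exact permutation p = 0.1, adjusted p = 0.267). With so few arrays that p is the smallest possible, so the test could not pass and does not decide whether csnk2a2a and csnk2a2b changed differently. The regulatory subunit csnk2b was at −0.06 ± 0.08.

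The catalytic gene csnk2a1 gave different answers from its probe sets. The brighter one, which represents the gene in the counts above, read 1823, 2127 and 2062 in morphants and 1845, 2057 and 1880 in controls, with overlap (0.05 ± 0.09, adjusted p = 0.802). The dimmer one read 677, 750 and 706 in morphants, against 1359, 1196 and 1171 in controls. Every morphant lay far below every control on it, and the change was −0.79 ± 0.10 (limma, adjusted p = 0.00263, and 0.000568 with the block). It stayed past the threshold without each of the 6 arrays in turn (adjusted p up to 0.0178, change between −0.83 and −0.73), which neither fzd8b nor gsk3ba did. The within-array log2 ratio of the brighter to the dimmer probe set was 1.41, 1.48 and 1.52 in morphants and 0.44, 0.77 and 0.68 in controls. That is a difference of 0.84 with no overlap. The exact permutation test gave p = 0.1, the smallest that 3 against 3 arrays can give (adjusted p = 0.6 over 12 comparisons). Which transcripts each probe set reads is not given in the sources used here. This probe set was singled out after its values were seen. Of the 10 members with more than 1 probe set, csnk2a1 was the only one with a call on a dimmer probe set, and averaged over its probe sets csnk2a1 was lower (−0.37, adjusted p = 0.0387).

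None of the 6 nuclear factors passed the test in either fit. The repressor tcf7l1a, needed for head formation in zebrafish, read 339, 394 and 429 in morphants and 339, 367 and 394 in controls, with overlap (0.07 ± 0.12, adjusted p = 0.816). Its paralogue tcf7l1b was at −0.12 ± 0.12, and the ratio between them overlapped between the groups (difference 0.20, exact permutation p = 0.4, adjusted p = 0.533). As for the Frizzled pairs, the permutation test could not have passed and does not decide whether these paralogues differed. The largest change of this step was in tcf7l2, with 36.5, 68.5 and 54.3 in morphants and 64.8, 62.5 and 70.0 in controls. Morphants 1 and 3 lay below every control, morphant 1 the lowest, and morphant 2 lay within the controls' range (−0.27 ± 0.17, limma, adjusted p = 0.438). Without morphant 1 the change of tcf7l2 was −0.085. The gene lay between percentiles 25.1 and 36.6, and its change was −0.348 with a pseudocount of 1 and −0.158 with a pseudocount of 64. The Groucho co-repressors tle2a, tle3a and tle3b were at −0.04 ± 0.08, 0.00 ± 0.19 and −0.08 ± 0.09. Dimmer tle3b probe sets were at −0.01 ± 0.13 and 0.09 ± 0.12. In tle3a the morphants read 485, 264 and 362, on both sides of the controls' 384, 345 and 349.

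Array by array, morphant 1 stood furthest from its group. It lay more than 0.5 on the log2 scale from the mean of the other morphants in 4 members, wnt1, wnt5b, tcf7l2 and tle3a, and morphant 2 did so in 1, tle3a, while no other array did in any member. Its median gap over the members was 0.157, beside 0.127 and 0.111 for morphants 2 and 3 and 0.086 to 0.107 for the controls, and over all probe sets it was 0.188. In 26 of 41 members (63.4%) all 3 same-numbered differences had the same sign, 18 higher and 8 lower, beside 54.5% of named genes. In 9 of 41 (22.0%) the groups did not overlap, 8 with morphants above and 1, gsk3ba, below, beside 28.9% of named genes, 14.5% above and 14.4% below.

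**Figure D3:**
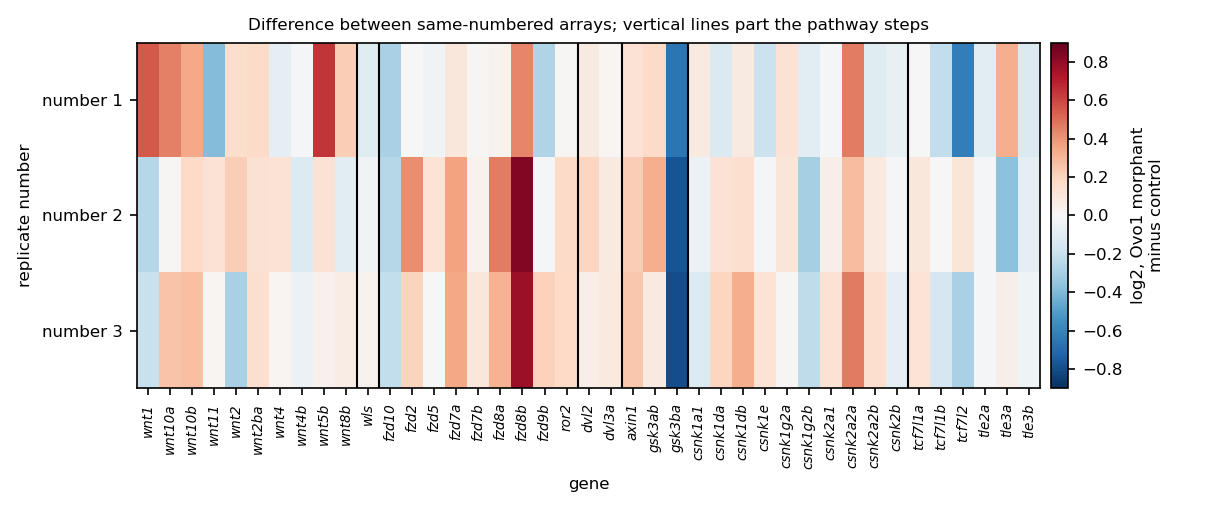
Log2 difference between same-numbered arrays, Ovo1 morphant minus control, for the 41 Wnt pathway genes (columns, in pathway order) and numbers 1 to 3 (rows). The columns of fzd8b (0.44, 0.83, 0.77) and gsk3ba (−0.66, −0.78, −0.80) keep their colour in all rows, while wnt1, wnt5b and tcf7l2 are most strongly coloured in row 1.

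Other genes of the pathway were read from lists drawn up with earlier results of these data known. Beside the counts below, 3.23% of all named genes were higher and 3.57% lower without the block. Beta-catenin itself did not pass, with ctnnb1 at −0.01 and ctnnb2 at 0.14 (adjusted p = 0.938 and 0.238). Of 17 genes of beta-catenin and its nuclear partners 1 was lower, the LIM domain binding factor ldb1a (−0.35 ± 0.08, adjusted p = 0.0374), and 0 higher, with a median of −0.017. Of 19 further cytoplasmic regulators 2 were higher and 0 lower, with a median of 0.01. These were dixdc1a, a DIX domain partner of Dishevelled (0.57 ± 0.13, adjusted p = 0.0403), and fbxw11b, an F-box protein of the ubiquitin ligase that takes up marked beta-catenin. The intensity of fbxw11b was 996, 1175 and 1122 in morphants, against 727, 755 and 750 in controls (0.55 ± 0.09, adjusted p = 0.0137), and its paralogue fbxw11a was at 0.03 (adjusted p = 0.912). Leaving out each array in turn, ldb1a and dixdc1a were called only without morphant 1 (adjusted p up to 0.161 and 0.168 otherwise). The call of fbxw11b ended without morphant 2, control 2 or control 3 (adjusted p up to 0.0779).

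Of 17 genes of the planar polarity and calcium branch 1 was higher and 0 lower, with a median of 0.011. Of 11 secreted modulators 2 were higher and 0 lower, with a median of 0.131: the agonist rspo1 and the inhibitor dkk1b (0.91 ± 0.13). The intensity of rspo1 was 242, 302 and 244 in morphants, against 18.7, 12.9 and 10.8 in controls, where it was dim, so its change of 3.21 ± 0.15 depends on the pseudocount of 16, which shrinks it. Of 22 genes known as Wnt targets 4 were higher, dkk1b, sox4a, sp5a and ved, and 0 lower, while 14 of the 22 lay below 0 and the list's median was −0.037. Of these 4, dkk1b was called without each array in turn, sox4a in 3 of those 6 fits, sp5a in 2 and ved in 0. The targets axin2 (−0.20, limma, adjusted p = 0.459) and lef1 (0.08, adjusted p = 0.876) passed in neither fit. With the block and not without it, the target isl1a (0.48) was higher and the target cdx4 (−0.26) lower. With the block the counts, higher and lower, were 1 and 2 for the nuclear partners, 3 and 1 for the cytoplasmic regulators, 1 and 1 for planar polarity, 4 and 1 for the secreted modulators and 5 and 1 for the targets. Of all named genes, 10.7% were higher and 10.6% lower in that fit.

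**Figure D4:**
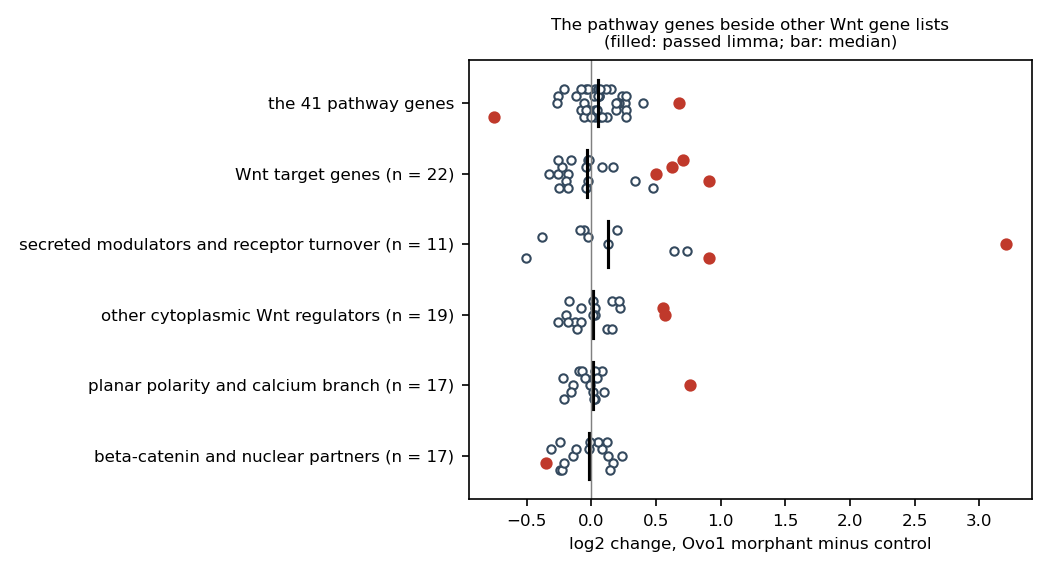
Log2 change, Ovo1 morphant minus control, of each gene in the 41 pathway genes and in 5 other Wnt lists (rows), with filled points for genes that passed limma and a bar at the list's median. The 41 pathway genes lie between −0.75 and 0.68, and the point at 3.21 among the secreted modulators is rspo1.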

How the data were processed

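Probe set values of 6 arrays were analysed. Each array's deposited values are linear intensities, 1 for each probe set. Per the submitters' processing notes, the authors used PLIER and Affymetrix's Expression Console 1.1; the settings for background and normalization were not given in the sources used here. Of 15617 probe sets, 115 Affymetrix controls were left out and 15502 tested. Values were taken as log2(intensity + 16) and quantile-normalized between arrays, and printed intensities are the normalized values with the 16 taken off. The pseudocount shrinks changes of dim probe sets.

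Symbols came from the platform annotation, updated by gene ID to RefSeq (GRCz12tu; 10711 of 10795 single-symbol probe sets matched). The test of morphant minus control used lmFit and eBayes with trend of limma 3.58.1 (R 4.3.3), adjusted by Benjamini-Hochberg over all 15502 probe sets. Ratios between paralogues or probe sets were compared by exact permutation tests in scipy 1.17.1. With 3 against 3 arrays these tests cannot give a p below 0.1, so none could pass the threshold. Members and lists were chosen with earlier results of these data known. Array values were to be given for members called in either fit or with the largest change of their step and for the paralogues of called members; wnt5b, wnt11, fzd7a, fzd7b and tcf7l1a were to be named, and from the lists the genes called and up to 4 others. Array values of further members, and sox10, foxa2, krt4, pax6b, rx3, emx3, otx2b, axin2, lef1, isl1a, cdx4 and msgn1, were added after they were seen.

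Replicate numbers in the titles were taken to pair the arrays, because deviations of same-numbered arrays from their group means correlated at 0.578, 0.461 and 0.542 across probe sets. Those of differently numbered arrays correlated at −0.502 to 0.105. Deviations cancel out within a group, so these correlations are not independent of each other. On simulated data of 15502 probe sets in 3 against 3 arrays, the fit called 13.4%, 77.6% and 95.5% of those given log2 changes of 0.5, 1 and 2, with 7 false calls among 131. Only 67, 67 and 66 probe sets were given those changes, and noise was drawn independently for each array. The data gave 886 calls and their same-numbered arrays deviated together, so these shares do not measure the power for the members. Alternatives changed the normalization, pseudocount, dim filter, variance model, array weights, block and probe set rule, and left out each array. Figures were drawn with matplotlib 3.10.9. The gene called in the planar polarity list is not reported here by name.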

Additional observations from a re-analysis of the deposited data

How the results depend on the processing

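The calls of fzd8b and gsk3ba kept their direction and their side of the threshold with pseudocounts of 1 and 64, no quantile normalization, centring on medians, a filter on dim probe sets (36 members left), other variance models (no trend, robust), weights for arrays, the replicate block and averaged probe sets. With the replicate block 3 members were higher and 2 lower, and over all probe sets 1367 higher and 1524 lower, against 402 and 484 without it. With array weights, which gave morphant 1 a weight of 0.34 and morphant 2 one of 3.03, 5 members were higher (csnk1db and gsk3ab besides those of the block) and 2 lower, and over all probe sets 1519 and 1607. Without the block, fzd7a, csnk2a2a and fzd10 passed with array weights at adjusted p of 0.0148, 0.025 and 0.0163. With averaged probe sets 2 members were lower, the second being csnk2a1. With each array left out in turn, 0 to 2 members were higher and 0 to 1 lower, and 146 to 830 probe sets higher and 123 to 883 lower; no member was called without control 3 or morphant 2. Of the 14 members followed through all settings, signs of uncalled changes turned in those fits for fzd7b (−0.033 to 0.142), csnk2a2b (−0.009 to 0.112), wnt11 (−0.18 to 0.048) and tcf7l1a (0 to 0.164); small changes of other members, such as wnt1 (−0.14 to 0.12) and tle3a (−0.20 to 0.21), turned too. The difference between wnt10a and wnt10b, −0.02, was 0.23 with a pseudocount of 1. Fits without an array did not use the block. On simulated arrays, which gave fewer calls than the data, few changes of 0.5 were called, so the test can miss changes of that size. How often it does so in the members was not measured. Background was not measured for the ligands below the 25th percentile.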
